A study of Mus musculus with 16 samples.

Results

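The regions described here are H3K27ac peaks that were called in embryos carrying mutant Hdac1 and had no counterpart in control embryos. They were chosen from the mutant H3K27ac peak list as peaks on chromosomes 1 to 19 wider than 5000 bp and up to 10000 bp that did not overlap any control H3K27ac peak by 1 bp or more. This gave 1904 peaks out of 114737 mutant H3K27ac peaks on these chromosomes, called members below, and they covered 12.3 Mb. Both H3K27ac and H3K4me3 had been mapped in late 2-cell mouse embryos, at 36 h after fertilization, by native chromatin immunoprecipitation from very few cells (ULI-NChIP-seq). Control embryos had received water as zygotes and mutant embryos had received mRNA encoding a mutant Hdac1 at the same stage. The labels do not state the mutation, the strain or the dose, and give no group injected with wild-type Hdac1 mRNA. Each mark in each condition was represented by 2 immunoprecipitation and 2 input libraries and by a single deposited peak list without heights or scores.

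H3K27ac, the acetylation of lysine 27 of histone H3, is found at active promoters and enhancers. Hdac1 encodes a histone deacetylase, which removes such acetyl groups and works within corepressor complexes such as Sin3 and NuRD. H3K4me3, the trimethylation of lysine 4 of histone H3, lies mainly at promoters, where CpG-rich sequence is its usual place. In the mouse, the late 2-cell stage is the time of the major wave of zygotic genome activation, when both marks are being redistributed from the broad patterns of the oocyte and zygote.

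The promoters under the widest members are shown here because those with H3K4me3 in the mutant list alone held few CpG. The first 4 lie under the widest members with a promoter and H3K4me3 in the mutant list alone, and the last 4 under the widest with H3K4me3 in both lists. Each run is the 250 bases before a RefSeq start site (GRCm38.p6), 5′ to 3′ on the gene's strand, and capitals mark CpG.
Epp13: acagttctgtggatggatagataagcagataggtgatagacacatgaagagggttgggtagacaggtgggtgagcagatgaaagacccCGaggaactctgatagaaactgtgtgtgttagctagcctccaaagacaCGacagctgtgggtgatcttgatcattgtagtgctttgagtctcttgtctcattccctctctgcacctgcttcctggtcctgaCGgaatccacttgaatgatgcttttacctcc
Ctsk: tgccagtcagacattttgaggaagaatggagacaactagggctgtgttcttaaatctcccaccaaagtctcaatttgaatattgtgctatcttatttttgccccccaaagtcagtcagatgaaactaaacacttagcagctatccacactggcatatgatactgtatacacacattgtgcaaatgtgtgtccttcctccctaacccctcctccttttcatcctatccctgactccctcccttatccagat
4932438H23Rik: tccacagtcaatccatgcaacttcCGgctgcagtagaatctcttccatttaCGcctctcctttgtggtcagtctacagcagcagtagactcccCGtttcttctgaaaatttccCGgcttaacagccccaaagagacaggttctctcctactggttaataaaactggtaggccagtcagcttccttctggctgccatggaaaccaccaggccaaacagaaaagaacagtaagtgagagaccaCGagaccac
Fam187b: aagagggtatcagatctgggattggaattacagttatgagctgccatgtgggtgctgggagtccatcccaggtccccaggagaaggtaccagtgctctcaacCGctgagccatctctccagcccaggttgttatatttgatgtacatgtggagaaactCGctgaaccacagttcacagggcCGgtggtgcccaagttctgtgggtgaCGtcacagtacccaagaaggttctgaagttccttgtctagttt
Cd3g: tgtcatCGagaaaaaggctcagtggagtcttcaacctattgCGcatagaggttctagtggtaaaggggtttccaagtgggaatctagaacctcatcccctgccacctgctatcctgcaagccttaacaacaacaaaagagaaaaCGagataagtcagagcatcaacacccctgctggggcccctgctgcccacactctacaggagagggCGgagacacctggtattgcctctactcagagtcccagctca
E2f2: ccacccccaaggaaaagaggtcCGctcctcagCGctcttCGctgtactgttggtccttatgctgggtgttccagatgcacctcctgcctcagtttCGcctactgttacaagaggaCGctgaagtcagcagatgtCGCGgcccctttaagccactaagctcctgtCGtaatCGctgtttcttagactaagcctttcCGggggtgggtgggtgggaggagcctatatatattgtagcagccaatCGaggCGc
B3gntl1: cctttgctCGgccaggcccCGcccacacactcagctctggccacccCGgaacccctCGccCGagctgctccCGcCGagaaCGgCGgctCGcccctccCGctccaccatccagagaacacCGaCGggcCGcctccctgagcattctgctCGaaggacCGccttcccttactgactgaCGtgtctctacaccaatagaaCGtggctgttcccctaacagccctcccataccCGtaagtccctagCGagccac
Acsbg1: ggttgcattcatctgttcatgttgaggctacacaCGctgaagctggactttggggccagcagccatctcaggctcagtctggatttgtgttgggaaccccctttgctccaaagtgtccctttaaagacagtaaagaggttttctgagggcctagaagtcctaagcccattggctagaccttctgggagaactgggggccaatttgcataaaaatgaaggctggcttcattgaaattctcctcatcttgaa
The run of Epp13 (chr7:6255672-6255921, plus strand) held 3 CpG and that of Ctsk (chr3:95498960-95499209, plus strand) held 0. The runs of 4932438H23Rik (chr16:91069153-91069402, minus strand) and Fam187b (chr7:30976810-30977059, plus strand) held 5 and 4. Cd3g (chr9:44980432-44980681, minus strand) held 4 and Acsbg1 (chr9:54661886-54662135, minus strand) held 1. E2f2 (chr4:136172024-136172273, plus strand) held 12 and B3gntl1 (chr11:121673152-121673401, minus strand) held 20. At Cd3g and Acsbg1 the promoter window itself was covered by H3K4me3 in the mutant list alone, although the member overlapped both lists, whereas at E2f2 and B3gntl1 it was covered in both.

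Because there is 1 list per condition, no value below has a replicate error and no test of the conditions was made. The sequencing depth is unknown. The range after a share is its 95% Wilson interval. It covers counting error only, and neighbouring peaks are not independent of each other. Differences between embryos, libraries and peak calling cannot be told apart in such lists.

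The absence of control H3K27ac is the choice itself and is given as a description. Of 9345 mutant H3K27ac peaks of 5 to 10 kb, 20.4% were mutant-only, and the other 7441 overlapped a control peak. In the opposite direction, 2114 of 9025 control H3K27ac peaks of this width (23.4%) had no mutant overlap. Mutant peaks of all widths lacked a control overlap more often, at 67.2%. The mutant list is the longer one, with 114737 H3K27ac peaks on these chromosomes against 73320 in the control list. The mutant-only share fell with width, from 26.9% (25.4 to 28.5) of peaks of 5 to 6 kb to 20.9% (19.3 to 22.6) at 6 to 7 kb, 17.2% (15.5 to 19.1) at 7 to 8 kb, 14.0% (12.1 to 16.1) at 8 to 9 kb and 9.98% (8.19 to 12.1) at 9 to 10 kb. The mutant-only peaks had a median width of 6142 bp, with quartiles of 5463 and 7186 bp. Those overlapping a control peak had a median of 6719 bp.

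**Figure D1:**
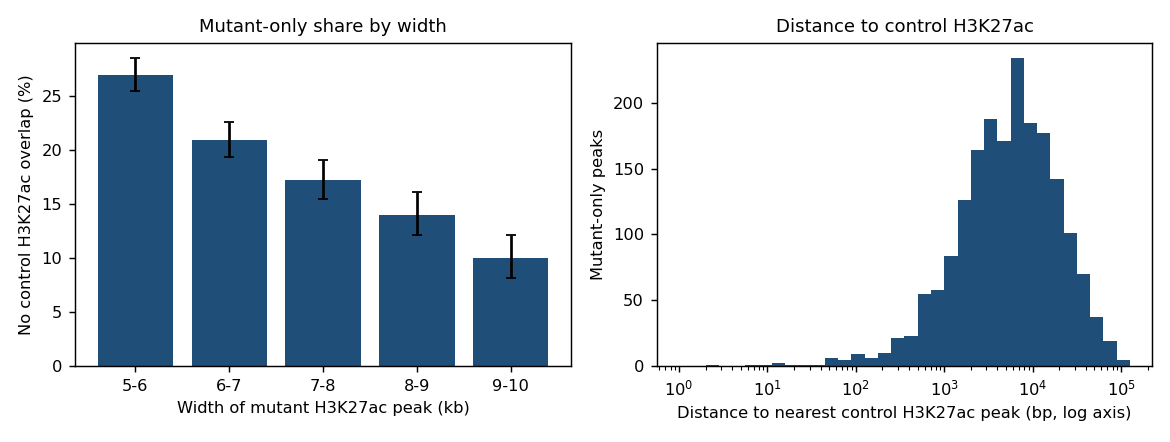
Left, percentage of mutant H3K27ac peaks without control H3K27ac overlap by peak width in kb, with 95% Wilson intervals as error bars. Right, number of mutant-only peaks by distance in bp to the nearest control H3K27ac peak on a log axis. The share falls from 26.9% to 9.98% across the width steps, and most distances lie between 1 and 50 kb.

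Most members lay within 10 kb of control acetylation. The distance to the nearest control H3K27ac peak had a median of 5866 bp and quartiles of 2238 and 13296 bp. It was at most 1 kb for 201 members (10.6%), between 1 and 5 kb for 674 (35.4%), between 5 and 10 kb for 418 (21.95%), between 10 and 50 kb for 567 (29.8%) and above 50 kb for 44 (2.31%). The nearest control peak was mostly narrow, with a median width of 1459 bp. It was 500 bp or less in 461 cases (24.2%) and wider than 5 kb in 382 (20.1%). That neighbour itself overlapped some mutant peak in 913 cases (47.95%), against 39.5% of all control peaks. A control-only peak of the same width class lay within 10 kb of 70 members (3.68%).

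At the edges of the rule, the members closest to control acetylation lay 2, 7 and 8 bp from it, near Bbs5, in Cfap57 and near Cfap20dc. The excluded peaks with the smallest overlap shared 7, 16 and 20 bp with a control peak, and 376 excluded peaks were covered by control H3K27ac over less than 10% of their length. The narrowest members measured 5002, 5003 and 5004 bp, in Hdac7, at Ifna13 and at Zscan30 and Zfp397. Non-overlapping peaks of 5000 bp in Cd101, at Atg4c and in Tcf7l1 fell just outside, as did peaks of 10027, 10030 and 10034 bp in Lekr1, near Dhx15 and at Sgca and Hils1.

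The members farthest from control acetylation differed in H3K4me3. The first, at chr18:15312134-15318140, was 110470 bp from the nearest control H3K27ac peak and 71253 bp from Aqp4, a water channel gene. The next, at chr12:15648583-15654893, was 110460 bp from control acetylation and 136831 bp from Trib2. It carried H3K4me3 in neither list, whereas 93.1% of the chromosome 18 member was covered by control H3K4me3 and none of it by mutant H3K4me3. A member within Frmd4b (chr6:97523280-97529399) lay 107272 bp from control acetylation and was covered by control H3K4me3 over 24.6% and by mutant H3K4me3 over 76.7% of its length.

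H3K4me3 was not used to choose the peaks, but its shares are not independent of that choice. Control H3K4me3 was found at 88.6% of mutant peaks of this width that overlapped control H3K27ac, against 59.0% of members. How far the H3K4me3 differences below follow from the choice was not tested. Control H3K4me3 overlapped 1123 members (59.0%, interval 56.8 to 61.2) and mutant H3K4me3 overlapped 1328 (69.7%, 67.6 to 71.8). Both lists marked 906 members (47.6%, 45.3 to 49.8) and neither marked 359 (18.9%, 17.2 to 20.7). H3K4me3 was present in the mutant list alone at 422 members (22.2%, 20.4 to 24.1) and in the control list alone at 217 (11.4%, 10.05 to 12.9). These shares count an overlap of 1 bp. When at least 50% of a member had to be covered, control H3K4me3 marked 25.2% and mutant H3K4me3 42.8%, and 24.3% had it in the mutant list alone. Over all 114737 mutant H3K27ac peaks, most of them narrow, control and mutant H3K4me3 each overlapped 33.9%, and 10.6% had it in the mutant list alone and 10.6% in the control list alone. The share of members with H3K4me3 in the control list alone was thus near that of all mutant peaks.

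The same shares were computed for mutant peaks of 5 to 10 kb that overlapped a control peak and for control-only peaks of that width. Among the overlapping peaks, 88.6% (87.8 to 89.3) carried control H3K4me3 and 80.3% (79.4 to 81.2) carried mutant H3K4me3. H3K4me3 in the mutant list alone was found at 5.98% (5.46 to 6.54) of them, and in the control list alone at 14.3% (13.5 to 15.1). Of the control-only peaks, 27.5% (25.7 to 29.5) were marked by H3K4me3 in the control list alone and 6.62% (5.64 to 7.76) in the mutant list alone. The intervals of the members and of both other classes did not overlap for either kind of one-sided H3K4me3. For H3K4me3 in the control list alone the intervals of members and overlapping peaks separated at 5 to 6 kb and in gene bodies, but overlapped at 6 to 7 kb, at 7 to 10 kb, at gene ends and between genes. At gene ends it was 8.07% (5.93 to 10.9) in members and 7.68% (6.74 to 8.73) in overlapping peaks. No p-value was computed, since peaks of 1 list are not replicates.

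**Figure D2:**
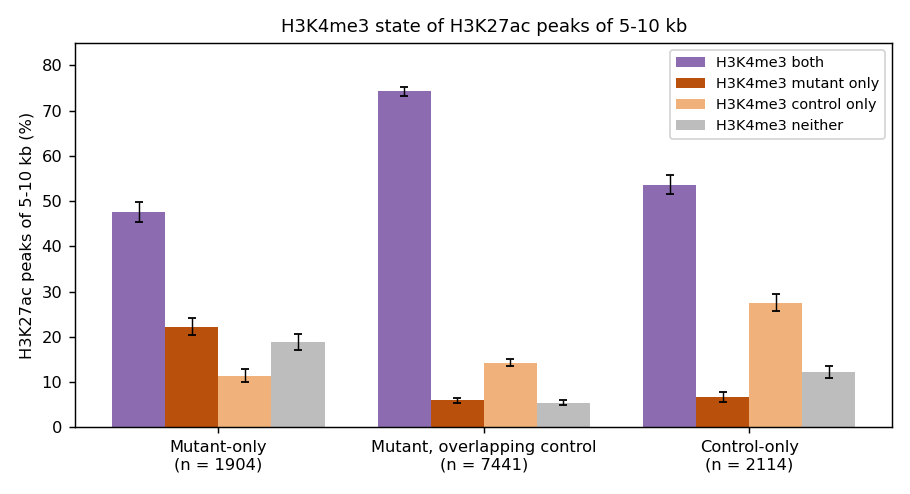
Percentage of H3K27ac peaks of 5 to 10 kb that overlapped H3K4me3 in both lists, in the mutant list alone, in the control list alone or in neither, for the 3 classes of peaks; error bars are 95% Wilson intervals. H3K4me3 in the mutant list alone is seen at 22.2% of mutant-only peaks, against 5.98% and 6.62% of the other classes.

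The share with H3K4me3 in the mutant list alone was higher in members than in overlapping peaks within each width step and each position. It was 21.9% in members of 5 to 6 kb, 23.2% at 6 to 7 kb and 21.7% at 7 to 10 kb, and in the overlapping peaks it was 8.18%, 6.34% and 4.16% in the same order. At gene ends it was 13.8% (10.98 to 17.2) in members and 2.08% (1.61 to 2.69) in overlapping peaks. Inside genes it was 26.9% (23.6 to 30.5) against 8.40% (7.41 to 9.51), and between genes 23.3% (20.5 to 26.4) against 8.04% (6.93 to 9.31). By distance to control acetylation, it was 24.9% (19.4 to 31.3) for members within 1 kb of a control H3K27ac peak, 22.1% at 1 to 5 kb, 22.1% at 5 to 20 kb and 20.4% (16.0 to 25.5) beyond 20 kb. The share in the mutant list alone can only count peaks without control H3K4me3, which were more common among members. Among peaks without control H3K4me3, mutant H3K4me3 was present at 422 members and absent at 359. The split was similar in overlapping peaks, at 445 and 404.

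Counted by covered bases, the control H3K4me3 list occupied 27.4% and the mutant list 41.4% of the members' sequence, which is 1.51 times as much. Over chromosomes 1 to 19 as a whole the control list covered 246.7 Mb and the mutant list 272.9 Mb, or 1.11 times as much. The ratio was 0.940 in the overlapping peaks and 0.742 in control-only peaks. More bases were covered in mutant than in control embryos at 1013 members (53.2%) and fewer at 502 (26.4%). Among the 906 members marked in both lists, 591 (65.2%) had more mutant and 285 had more control coverage, and the median covered share was 47.3% in control and 69.9% in mutant embryos. Control H3K4me3 peaks that touched members had a median width of 2793 bp and mutant ones 4318 bp, against 1695 and 1765 bp over all peaks of these lists. The touching peaks were also wider in the mutant list at overlapping peaks (4851 and 5926 bp) and at control-only peaks (3469 and 4137 bp).

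Marks in the surroundings of the members were measured next. In the 1-kb bin just right of the centre, control H3K4me3 covered 30.3% and mutant H3K4me3 43.2% of bases, while 29.5 kb to the right they covered 21.96% and 24.6%. Control H3K27ac, 0% at the centre by choice, covered 20.5% of bases at 29.5 kb, and mutant H3K27ac 21.3%. Around overlapping peaks it covered 40.1% at 29.5 kb, where mutant H3K27ac covered 32.5%. Around control-only peaks control H3K27ac covered 28.9% and mutant H3K27ac 24.1% at that distance. The classes were split on control H3K27ac, so its lower coverage near members partly follows from the choice. Within 50 kb a member had on average 8.38 other mutant H3K27ac peaks and an overlapping peak 9.93.

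**Figure D3:**
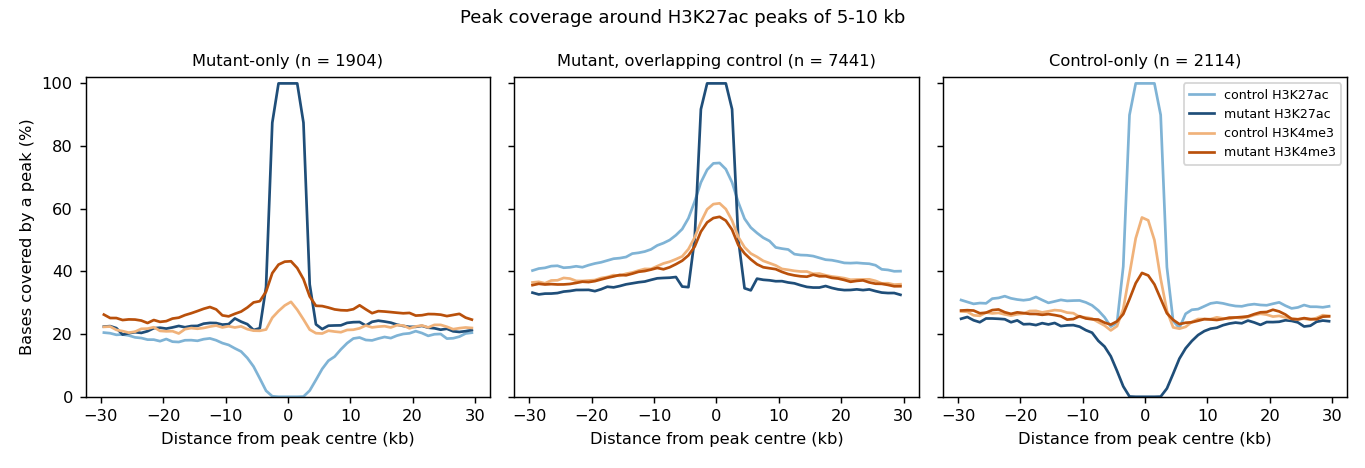
Percentage of bases covered by peaks of the 4 lists in 1-kb bins, by distance in kb from the centre of H3K27ac peaks of 5 to 10 kb, for mutant-only, overlapping and control-only peaks. Mutant H3K4me3 lies above control H3K4me3 at the centre of mutant-only peaks (43.2% against 30.3%) and below it at control-only peaks (38.7% against 56.3%).

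Gene ends were touched by members less often than by overlapping peaks, and more often than by mutant H3K27ac peaks of all widths. A window reaching 2 kb to either side of a protein-coding gene end was touched by 471 members (24.7%, 22.9 to 26.7). A further 639 (33.6%, 31.5 to 35.7) lay in gene bodies, and 794 (41.7%, 39.5 to 43.9) lay between protein-coding genes. Of the overlapping peaks, 36.8% (35.7 to 37.9) touched a gene end and 27.1% (26.1 to 28.1) lay between genes. Control-only peaks touched a gene end in 28.1% (26.2 to 30.1), an interval that overlapped that of the members. They were between genes in 28.6% (26.7 to 30.6) and in gene bodies in 43.3% (41.2 to 45.4). The intergenic share of members exceeded that of the overlapping peaks at 5 to 6 kb (42.4% against 29.8%), at 6 to 7 kb (44.2% against 26.7%) and at 7 to 10 kb (38.1% against 25.3%). Of mutant H3K27ac peaks of all widths, 13.8% (13.6 to 14.0) touched a gene end and 45.5% lay between genes. Most of those peaks are narrow, and a narrow peak reaches a fixed window less often by its size.

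The 866 members that overlapped no protein-coding gene lay a median of 20297 bp from the nearest one, against 11092 bp for 2361 overlapping peaks and 17670 bp for 673 control-only peaks. More than 100 kb separated 112 of these members (12.9%) from any protein-coding gene, compared with 5.21% of the overlapping and 15.01% of the control-only peaks. Genes of long noncoding RNAs were overlapped by 306 members (16.1%, 14.5 to 17.8) and by 12.8% (12.1 to 13.6) of the overlapping peaks. Exons and introns were not analysed here.

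A listed start site of a protein-coding gene lay within 2 kb of 269 members (14.1%), against 22.5% of overlapping and 16.5% of control-only peaks. Whole promoter windows, reaching from 250 bases before to 50 after the start, lay inside members for 214 genes. These 242 windows had a median of 18 CpG and a GC content of 58.5%. The medians were 20 CpG and 60.7% under overlapping peaks, and 14 CpG and 57% over all 20085 windows. At most 4 CpG were found in 45 windows under members (18.6%), in 167 of 1519 under overlapping peaks and in 27.5% of all windows.

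H3K4me3 marked 183 of the 242 windows (75.6%, 69.8 to 80.6) in both lists, 25 (10.3%, 7.10 to 14.8) in the mutant list alone, 15 (6.20%, 3.79 to 9.97) in the control list alone and 19 (7.85%, 5.08 to 11.9) in neither. Of all windows, 60.7% carried H3K4me3 in both lists, 4.46% in the mutant list alone, 7.56% in the control list alone and 27.3% in neither. Under overlapping peaks the shares were 89.7%, 2.30%, 5.53% and 2.44% in the same order. The members' share in the control list alone thus lay near both. The windows marked in both lists had a median of 22 CpG, and those marked in the mutant list alone a median of 4, with none above 10. This contrast was not particular to members, since the medians over all windows in the same states were 21 and 5 CpG.

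Short motifs were searched on both strands of the 250 bases before the start. The GC box GGGCGG occurred in 121 of 242 windows under members (interval 43.7% to 56.3%) and in 43.4% of all windows. The CCAAT box CCAAT was found in 36.0% and 35.3%, the TATA box TATAAA in 9.92% (6.76 to 14.3) and 11.7%, and GGATTA, bound by homeobox factors of the Obox type, in 5.37% and 5.82%. AAGGTCA, bound by nuclear receptors such as Nr5a2, occurred in 1.24% (0.422 to 3.58) of windows under members and in 723 of all 20085, and the motif of Dux in 0 of the 242 windows and 0.0299% of all. The interval included the share over all windows for the CCAAT box, the TATA box, GGATTA and Dux. For the GC box the share over all windows lay just below the interval, and for AAGGTCA just above it. Under overlapping and control-only peaks the GC box was found in 54.6% and 59.1%, above the share under members, and AAGGTCA in 2.44% and 2.27%, inside the interval of the members. A window counted for every motif it held, also where motifs overlapped.

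The 23 genes with H3K4me3 in the mutant list alone at a promoter under a member included Cd3g and Cd3d, which encode subunits of the T-cell receptor complex, and Ctsk, the cathepsin of osteoclasts. Cd300lf and Ptpn22 are genes of immune cells, Krt24 encodes a keratin, Saa2 an acute-phase protein and Olfr544 an olfactory receptor. Dppa1, a gene of the early embryo, and Furin, a proprotein convertase gene, were among them as well. These examples were picked from the 23 after their names were seen.

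The widest member spanned 9965 bp over Cd3g and Cd3d (chr9:44972176-44982140), 305 bp from a control H3K27ac peak of 177 bp. Control H3K4me3 covered 16.2% of it with a single peak of 1610 bp, and mutant H3K4me3 covered 76.6% with peaks of 3765, 1002 and 7622 bp. The mutant H3K4me3 peak of 7622 bp covered all 300 bases of the Cd3g promoter window, and control H3K4me3 covered 0 of them. At Ctsk, the member of 8450 bp (chr3:95492390-95500839) lay 6615 bp from control acetylation. It held no control H3K4me3 and a mutant H3K4me3 peak of 2489 bp across the promoter. The member at 4932438H23Rik, of 8067 bp, held no control H3K4me3 and was covered over 79.9% by mutant H3K4me3.

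Other wide members showed H3K4me3 in both lists. At E2f2, which encodes a transcription factor of the cell cycle, a member of 9910 bp (chr4:136165632-136175541) was covered over 84.2% by control and 100% by mutant H3K4me3. There control H3K4me3 formed peaks of 10815, 2208 and 4436 bp, and mutant H3K4me3 a single peak of 25020 bp. In Smarca4, the ATPase subunit of BAF chromatin remodelling complexes, a member of 9927 bp (chr9:21684097-21694023) lay within the gene and carried less H3K4me3 in mutant (26.7%) than in control embryos (49.8%). The member of 9924 bp near Igsf3 (chr3:101352606-101362529), 14142 bp from the gene, went from 53.2% in control to 100% in mutant embryos. Others of the widest 10 lay in Tom1l2 (9947 bp), Frmd5 (9886 bp), B3gntl1 (9853 bp) and Acsbg1 (9847 bp), and near Mgat5b (9881 bp) and Ccdc69 (9877 bp). All 10 overlapped mutant H3K4me3 and 7 overlapped control H3K4me3.

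Members without H3K4me3 in either list were also found at genes. The widest of these measured 9771 bp and lay 113730 bp from Ube2e2 (chr14:18450062-18459832), 509 bp from a control H3K27ac peak of 11063 bp. It was followed by members of 9428 bp in Gpatch2l, 9195 bp at Fmo1, 8986 bp near Egln3 and 8873 bp in Tanc1. Where H3K4me3 was in the control list alone, the widest members lay near Myof (9820 bp), at Clpx (9735 bp), near Gsx1 (9657 bp) and Zfand3 (9553 bp) and in Gna14 (9483 bp). Control H3K4me3 covered 64.0% of the member near Zfand3 and 39.9% of that at Clpx.

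Counted by gene, members lay at an end of 567 of 20665 protein-coding genes (2.74%) and in, or within 2 kb of, 1142 (5.53%). Since members hold no control H3K27ac by choice, its share at the ends of these genes is a description. Of the 567, 266 (46.9%) had a control H3K27ac peak within 2 kb of an end and 301 had none, while 56.3% of all genes had one. Control H3K4me3 was at an end of 527 of them (92.9%) and mutant H3K4me3 of 531 (93.7%), while the shares of all genes were 76.4% and 75.1%. It appeared at 26 of the 567 in the mutant list alone and at 22 in the control list alone, against 1012 and 1285 of all 20665 genes. Genes touched by a member were long, with a median of 51201 bp against 17491 bp over all genes.

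Of 403 matched entries in 12 lists, 9 had a member at a gene end and 26 had one in or near the gene, which is close to the shares of 2.74% and 5.53% over all genes. The 2-cell genes of zygotic genome activation, among them Zscan4 and Obox genes, had 0 of 33 touched, where 5.53% of all genes were. Dppa1, which is not on that list, was touched by 2 members. The pluripotency and inner cell mass factors had 0 of 25, and the genes of differentiated tissues 0 of 36. The lists with 0 touched are small and their genes short. Their median lengths were 6868, 7367 and 10523.5 bp, in the order named, against 17491 bp over all genes. Olfactory receptor genes of the Olfr family had 2 of 1104 (0.181%) and vomeronasal receptor genes 0 of 354. These genes are short, with medians of 950 and 962 bp, and short genes are touched less often. Zinc finger genes of the Zfp series had 21 of 391 (5.37%) with a member at an end and solute carrier genes 18 of 376 (4.79%), against 2.74% of all genes. Counted in or near the gene, the shares were 6.91% and 7.71%, closer to the 5.53% of all genes.

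Factors of the trophectoderm, the outer lineage of the blastocyst, and of the Hippo pathway had 5 of 23 genes (21.7%) touched, against 5.53% of all genes. At a gene end the count was 0 of 23, against 2.74% of all genes. The 5 touched genes were 30876 to 227429 bp long, while the median was 19135 bp in the list and 17491 bp over all genes. All 5 members lay inside the gene and away from its annotated ends, although the member in Gata3 holds a listed promoter window of that gene (chr2:9878551-9878850, minus strand). The count is small and the list was chosen with earlier results of these data known. The genes were the DNA-binding factors Tead1 and Tead4, their coactivator Wwtr1, the Hippo regulator Amotl1, and Gata3, a trophectoderm transcription factor. In control embryos each carried both marks within 2 kb of one of its ends. The member in Tead4 (chr6:128262711-128268704) measured 5994 bp, lay 5133 bp from control acetylation and was covered by H3K4me3 over 86.0% in control and 79.1% in mutant embryos. The member in Wwtr1 (5184 bp, chr3:57528081-57533264) was covered over 0% and 100%, that in Amotl1 (5537 bp) over 17.4% and 59.1%, that in Tead1 (7165 bp) over 21.7% and 54.5%, and that in Gata3 (6244 bp) over 84.2% and 100%. H3K4me3 coverage was larger in mutant embryos at 4 of these 5 members, as it was at 1013 of all 1904 members, with 502 the other way.

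Oocyte and maternal genes had 3 of 38 (7.89%) with a member, all at a gene end, where 2.74% of all genes had one. The difference is about 2 genes. These were Zp2, which encodes a protein of the zona pellucida, Nobox, an oocyte homeobox factor, and Zfp36l2, which encodes an mRNA decay factor. The Nobox member (chr6:43299626-43308844) measured 9219 bp and covered most of the gene, 11323 bp from the nearest control H3K27ac peak. Control H3K4me3 covered 33.9% of it with peaks of 242 and 4435 bp, and mutant H3K4me3 covered 85.7% with a peak of 10313 bp. At Zp2 (chr7:120142831-120150773, 7943 bp) H3K4me3 covered 16.7% in control and 90.3% in mutant embryos. The member at Zfp36l2 (chr17:84176372-84183903, 7532 bp) went the other way, with 99.9% in control and 65.6% in mutant embryos.

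**Figure D4:**
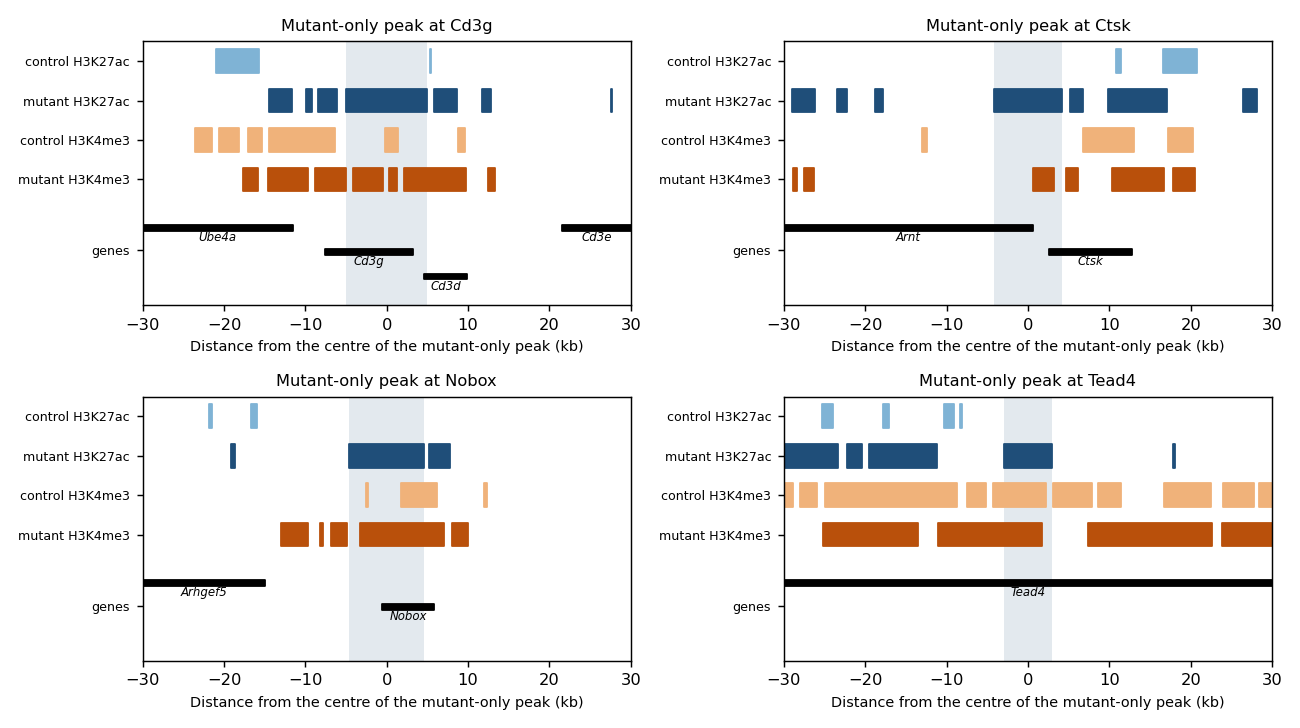
Peaks of the 4 lists and protein-coding genes within 30 kb of 4 mutant-only peaks, by distance in kb from the peak centre; coloured bars are peaks, black bars are genes and the shaded band is the mutant-only peak. Each band holds mutant and no control H3K27ac, and mutant H3K4me3 covers more of the band than control H3K4me3 at Cd3g, Ctsk and Nobox, but not at Tead4.

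Genes of the deacetylation machinery had 4 of 35 with a member in or near the gene and 1 at an end, against 5.53% and 2.74% of all genes. The count at an end is that of the background. The 5002 bp member in Hdac7, a class IIa deacetylase (chr15:97801711-97806712), lay 30004 bp from control acetylation, and H3K4me3 covered 81.9% in control and 100% in mutant embryos. The 5004 bp member in Hdac9, of the same class, lay 74342 bp from control acetylation and carried no H3K4me3 in either list. In Sin3a, the scaffold of the Sin3 corepressor complex, a member of 5879 bp had a mutant H3K4me3 peak of 944 bp and none in control embryos. At Mbd3, a subunit of NuRD, a member of 7305 bp lay at a gene end and was covered over 65.9% in control and 88.2% in mutant embryos. Hdac1 and Hdac2 were not touched. Among acetyltransferases and acetyl readers 1 of 19 genes was touched, Kat2b, with a member of 5882 bp free of H3K4me3. Among H3K4 methyltransferases and demethylases 2 of 19 were touched, Smyd1 and Smyd3. The counts of the acetyltransferase and reader list and of the H3K4 enzyme list differ from the 5.53% of all genes by 1 gene or less. The 4 of 35 genes of the deacetylation machinery are 11.4%. That list had a median length of 34426 bp, against 17491 bp over all genes.

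Signalling genes, with a median length of 58997 bp against 17491 bp over all genes, had 4 of 50 touched, against 5.53% of all genes. These were the ligand genes Wnt3 and Wnt5a, the receptor gene Notch2 and the effector gene Smad2. Wnt3 had its member at a gene end (chr11:103769657-103777241, 7585 bp), fully covered by H3K4me3 in both conditions. The Smad2 member was covered over 17.95% in control and 59.8% in mutant embryos. Neuronal adhesion and synapse genes had 3 of 56, Cntn4, Ctnna3 and Auts2, although their median length was 1068100 bp. Housekeeping genes had 2 of 28 with a member at an end, against 2.74% of all genes, the glycolytic enzyme gene Eno1 and the 14-3-3 gene Ywhaz. Ribosome biogenesis and ribosomal protein genes had 2 of 41 touched, against 5.53% of all genes, Nop58, a core protein of box C/D particles, and Utp15, of the small subunit processome.

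A few genes held several members. In all, 79 genes were touched by 2 members and 5 genes by 3 or more. Etl4 (chr2:19910207-20810535, 900329 bp long) was touched by 5 members of 5387 to 8953 bp, of which 4 carried H3K4me3 in both lists and 1 in neither. Efna5, an ephrin ligand gene, Fam163a, Gigyf2 and the zinc transporter gene Slc39a11 had 3 each. At Fam163a, mutant H3K4me3 covered more than control H3K4me3 at all 3, with 50.7% against 2.01%, 26.9% against 0% and 99.4% against 48.6%. At Gigyf2 the 3 members differed, with 58.4% in control and 0% in mutant, none in either, and 0% in control and 33.4% in mutant embryos.

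The members were spread over all 19 chromosomes. The mutant-only share of mutant peaks of this width was lowest on chromosome 11, at 13.7% (11.6 to 16.1), and highest on chromosome 13, at 28.8% (24.2 to 33.9). Chromosome 14 had 27.9% (23.3 to 33.0) and chromosome 3 27.4% (23.3 to 32.0). The share of members with H3K4me3 in the mutant list alone ranged from 13.3% of 60 members on chromosome 19 to 30.1% of 123 on chromosome 11. Mutant H3K4me3 marked at least as many members as control H3K4me3 on each chromosome except chromosome 19.

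**Figure D5:**
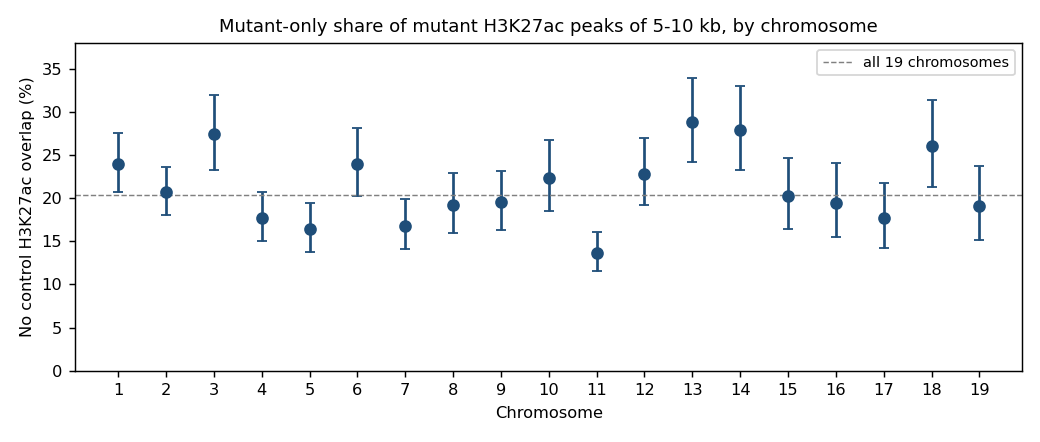
Percentage of mutant H3K27ac peaks of 5 to 10 kb without control overlap on each of chromosomes 1 to 19, with 95% Wilson intervals; the dashed line is the share over all 19 chromosomes, 20.4%. Chromosome 11 lies lowest at 13.7% and chromosome 13 highest at 28.8%.

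Members occurred in 1044 windows of 1 Mb, of which 552 held 1 member. The window with the most, on chromosome 2 from 71000001 to 72000000, held 9 of its 20 mutant peaks of this width, touching Metap1d, the integrin gene Itga6 and Pdk1. Control H3K4me3 was found at 4 of the 9 and mutant H3K4me3 at 8, with more mutant than control coverage at 6. On chromosome 11 from 83000001 to 84000000, 8 members touched Ap2b1, the chemokine genes Ccl4 and Ccl6, Heatr6 and Synrg, with control H3K4me3 at 2 and mutant H3K4me3 at 4. Windows on chromosomes 10, 19 and 3 held 7 each. In the chromosome 3 window, from 34000001 to 35000000, control H3K4me3 was at all 7 members and coverage was smaller in mutant embryos at 6 of them. That window holds Sox2 (34649995 to 34652461), a pluripotency factor, which lay 14700 bp from the nearest member and was not touched, although 1 member overlapped Sox2ot (chr3:34560381-34677993), a transcript that spans it. Sox2 was singled out after these values were seen.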

How the data were processed

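The authors deposited 1 peak list per mark and condition, 4 in all, from 16 libraries in 8 groups of 2. Each deposited row gives only a position (chromosome, start, end) and no score. Per the submitters' processing notes the build was mm10 (GRCm38) and the tools named were CASAVA, Trimmomatic, Bowtie2, SAMtools, Picard, MACS2 and deepTools, without versions, settings or order. The 2 immunoprecipitation libraries of a group point to 1 list, per the labels. Whether reads were pooled before calling is not given in the sources used here. The lists differ in their smallest width (149 to 182 bp), so limits on width and joining may differ between them.

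BED starts were shifted by 1 so that printed positions are 1-based. Genes, start sites and promoter sequences came from RefSeq tables of GRCm38.p6. The gene table holds 20665 protein-coding genes on chromosomes 1 to 19 and no strand, so windows were set at both gene ends. Promoter windows were used for 16457 of these genes and none were on chromosome 18. Strand was checked on 1641 overlapping window pairs of opposite strand, and all 1641 matched as reverse complements. Overlap means 1 bp unless stated. Motifs were 6 short sequences, Dux given by name. Interval functions were tested on simulated data. Python 3.11.15, pandas 2.3.3, numpy 2.4.6, scipy 1.17.1 and matplotlib 3.10.9 were used.

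The regions and gene lists were chosen with earlier results of these data known. Regions named are the widest 10, the widest 5 in each H3K4me3 state, the extremes of distance and width, the fullest 1-Mb windows and all listed genes with a member, with examples taken from these. Listed genes were matched by symbol or synonym for 403 of 419 entries.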

Additional observations from a re-analysis of the deposited data

How the results depend on the processing

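No paired analysis was possible because the 2 libraries of a group have 1 peak list between them, so no replicate could be left out either. Of 51 recomputed values for 9 results, 25 stayed inside the reported interval (for counts, a factor of 1.5) and 26 moved. The number of mutant-only peaks, 1904, fell to 1030 without control H3K27ac within 5 kb and to 1044 above 6 kb, both of which keep fewer peaks by construction. Their share among mutant peaks of 5 to 10 kb, 20.4%, was 27.1% once peaks under 1 kb apart were merged, 23.7% under common limits on gap (750 bp) and width (200 bp), 24.4% allowing less than 10% overlap, 18.2% and 11.02% without control peaks within 1 and 5 kb, and 17.0% above 6 kb. Merging gave 56.6% for control H3K4me3, 65.5% for mutant H3K4me3, 22.8% for gene ends and a median distance of 6645 bp. Above 6 kb these H3K4me3 shares were 62.3% and 74.0%, gene ends 27.4%, and genes with a member at an end 347. With 50% of the peak covered they were 25.2% and 42.8%, with H3K4me3 in the mutant list alone at 24.3%. Counting H3K4me3 within 1 kb they were 63.8% and 73.6%. Common limits gave 66.9% for mutant H3K4me3, an alternative added after seeing the data. Windows of 1 and 5 kb gave 21.7% and 34.7% for gene ends, and 5 kb gave 36.9% between genes. Without control peaks of 500 bp or less the median distance was 7139 bp. The share of members with H3K4me3 in the mutant list alone stayed above that of overlapping peaks in all 7 alternatives computed for it, the closest being 24.3% against 11.7% with 50% of the peak covered. The depth of the libraries is unknown, so peaks near a calling threshold could not be identified.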

Other observations

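On the X chromosome, left out of the choice of regions, 30 of 162 mutant H3K27ac peaks of 5 to 10 kb (18.5%, 95% Wilson interval 13.3 to 25.2) had no control overlap. H3K4me3 was in both lists at 8 of them, in the mutant list alone at 5, in the control list alone at 8 and in neither at 9. They lay at the ends of 13 protein-coding genes, among them Pdk3, Plxna3, Nox1, Tenm1 and Vgll1.

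Of 919 miRNA hairpins on chromosomes 1 to 19, 7 lay under mutant-only peaks, or 0.569 per Mb of peak, against 47 (0.910 per Mb) under mutant peaks of this width that overlap a control peak and 16 (1.12 per Mb) under control-only peaks. The count of 7 is too small to rank these densities, and the density over the chromosomes as a whole was not computed. Mir100 lay under a peak of 7066 bp (chr9:41528633-41535698), 14853 bp from control acetylation and without H3K4me3 in either list. The peaks over Mir6898 (7077 bp) and Mir7210 (6373 bp) carried H3K4me3 in the mutant list alone, that over Mir7038 in the control list alone, those over Mir6367 and Mir12193 in both, and that over Mir6416 in neither.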
